A study of Mus musculus with 39 samples.

Results

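The chromatin sites of the glucocorticoid receptor (GR) were compared between 7438 mouse mammary cells given dexamethasone (Dex) alone and the same cells given Dex together with estradiol (Dex+E2). The members were all called sites of the pair of GR ChIP-seq lists that are named for these treatments, 12084 sites with Dex and 9503 with Dex+E2. These 21587 sites were taken from 110608 sites in all 24 lists of the series. A site was called shared if it overlapped a site of the other list by at least 1 bp, and Dex-only or Dex+E2-only if it did not.

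The 7438 cells express GR fused to GFP and the estrogen receptor (ER) fused to Cherry, both under a promoter regulated by tetracycline. Tetracycline was withdrawn 24 h before treatment, so both fusion proteins were switched on in all groups, including untreated cells. Cells were left without hormone or received 100 nM Dex, 100 nM estradiol (E2) or 100 nM of both for 30 min, and GR was precipitated with a cocktail of antibodies. The same treatments were given to 7438 Afos cells, a line carrying Afos, whose lists serve here as separate libraries with 2 replicates a treatment. What Afos stands for is not explained in the labels. A protein of that name, A-Fos, is widely used to stop AP-1 factors from binding DNA. The labels do not say whether 7438 or 7438 Afos is a single clone, or whether replicates came from separate cultures.

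The list named for both hormones was deposited under a sample labelled untreated, and the list named untreated under a sample labelled Dex+E2. The same exchange affects the ER lists of 7438. The names of the lists were followed here. Under the labels, the list read as Dex+E2 would hold only 143 GR sites and would overlap 135 of the 12084 Dex sites (1.12%). The Dex list carries the same treatment in its name and its label.

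GR and ER are nuclear receptors that bind DNA after binding their steroid ligand. Dex is a synthetic ligand of GR, and E2 is the natural ligand of ER. GR recognises glucocorticoid response elements, and many of its sites lie in chromatin that other factors, AP-1 among them, have already opened. ER recognises estrogen response elements, which have a different sequence.

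Each GR treatment had 1 list in 7438, so no test between treatments was possible there. Intervals in parentheses are exact (Clopper-Pearson) 95% binomial intervals. They cover counting error only, and sites of one list are not replicates. Read totals are not part of the lists, which makes the sequencing depth unknown, so it was not tested whether a missing site was unbound or only below the calling limit. Every site was 150 bp wide, and none of the GR sites had a highest tag density under 10 or a z-score under 15. The median highest tag density was 20.9 in the Dex list (maximum 759) and 18.2 in the Dex+E2 list (maximum 528). How densities were scaled is not stated, so strength was compared as a percentile rank within each list, where 100 is the strongest site. The lists differ in length, so a difference in rank is not by itself a change in binding.

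Most GR sites were present in both lists. Of the 12084 Dex sites, 7699 overlapped a Dex+E2 site, or 63.7% (62.8 to 64.6), and 4385 were Dex-only, or 36.3% (35.4 to 37.2). Of the 9503 Dex+E2 sites, 7704 were shared, or 81.1% (80.3 to 81.9), and 1799 were Dex+E2-only, or 18.9% (18.1 to 19.7). Dex-only sites thus outnumbered Dex+E2-only sites. With equal numbers of sites taken from the top of each list, 76% of Dex sites were shared and 23.9% of Dex+E2 sites were Dex+E2-only. Nearly every shared site had a single partner, so lists of equal length must have nearly equal numbers of unshared sites. This setting therefore cannot test the excess. When weaker sites than each list's median were left out, 92.3% of Dex sites were shared and 10.3% of Dex+E2 sites were Dex+E2-only. Shared sites lay nearly on top of each other. Their median overlap was 141 of 150 bp (quartiles 133 and 146), and their centres lay a median of 9 bp apart. Only 71 shared Dex sites overlapped their partner by less than 75 bp.

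The unshared sites were the weaker ones of each list, more so among Dex-only sites. In the Dex list the median density rank was 67.4 for shared sites (quartiles 47.7 and 84.0) and 22.5 for Dex-only sites (quartiles 10.6 and 37.3). In the Dex+E2 list it was 55.4 for shared sites (quartiles 29.2 and 78.5) and 31.1 for Dex+E2-only sites (quartiles 14.6 and 52.4). The quartile ranges did not overlap in the Dex list and overlapped in the Dex+E2 list. The gap of 44.9 points in the Dex list was 18.8 when only sites at or above the median density were kept, and the gap of 24.2 in the Dex+E2 list was 10.5. Ranks by z-score gave nearly the same medians, 67.5 for shared and 25.1 for Dex-only sites, and 55.5 for shared and 30.4 for Dex+E2-only sites. On the authors' own scales, Dex-only sites had a median highest density of 13.7 and a median z-score of 40.5, against 30.4 and 70.8 at shared sites of the Dex list. Dex+E2-only sites had medians of 14.1 and 43.3, against 19.9 and 56.4 at shared sites of the Dex+E2 list.

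The share of Dex sites found again with Dex+E2 climbed steeply with strength. With each list cut into 10 classes of nearly equal size, from weakest (class 1) to strongest (class 10), it was 13.5% in class 1 of the Dex list (165 of 1218 sites). It was 61.0% in class 5, 77.2% in class 6 and 99.3% in class 10 (1201 of 1209). The Dex+E2 list was flatter, from 65.3% in its class 1 (618 of 947) to 76.8% in class 5 and 96.5% in class 10 (918 of 951). By z-score the range was 26.6% to 99.9% in the Dex list and 63.2% to 97.3% in the Dex+E2 list. The weakest 20% of the Dex list held 45.0% of the Dex-only sites, and the weakest 20% of the Dex+E2 list held 34.0% of the Dex+E2-only sites. By highest density, only 8 Dex-only sites ranked in the top 10% of their list, against 33 Dex+E2-only sites. By z-score, 1208 of 1209 sites in class 10 of the Dex list were shared, and 925 of 951 in class 10 of the Dex+E2 list.

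**Figure D1:**
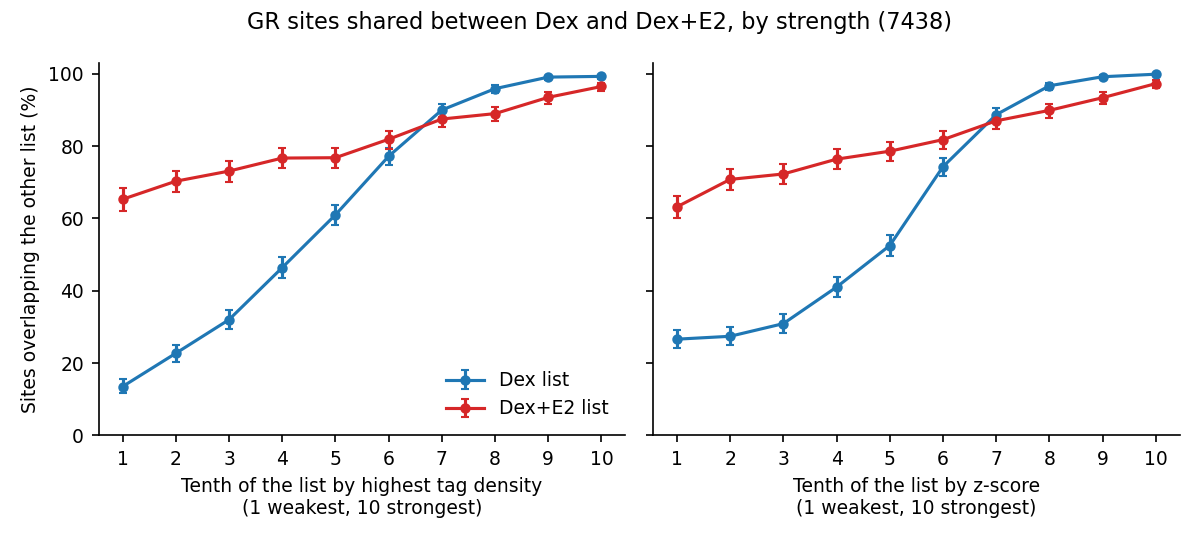
Share of GR sites (%) that overlap the other list, in 10 classes of strength within the site's own list from weakest (1) to strongest (10), ranked by highest tag density (left) or z-score (right). Bars are exact 95% binomial intervals; the Dex list (blue) runs from 13.5% to 99.3% by density, and the Dex+E2 list (red) from 65.3% to 96.5%.

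The strongest shared GR sites are described first. The rule for naming sites took the 8 shared sites with the highest mean rank, so that they are strong in both lists is fixed by the choice. The strongest by mean rank, chr17:56248206-56248356 (mm9, as the list gives it), had a highest tag density of 744 with Dex and 528 with Dex+E2. The site chr17:28649867-28650017 had the maximum of the Dex list, 759, and 463 with Dex+E2. The site chr4:134745771-134745921 had 743 and 488, chr11:101561873-101562023 had 675 and 466, and chr2:152631932-152632082 had 662 and 427. All 8 were in the ER Dex+E2 list, which held 51.5% of shared sites in the strongest 20% of the Dex list and 69.2% of those in the strongest 20% of the Dex+E2 list. Of the 8, 3 were in the ER E2 list, and all 8 were in each of the 4 GR lists of 7438 Afos with Dex or Dex+E2. Of all shared sites in the strongest 20% of the Dex list, 14.1% were in the ER E2 list. In the 7438 Afos GR lists, 98.3% and 93.2% of them were listed with Dex, and 96.7% and 98.5% with Dex+E2. At chr4:134745771-134745921, ER had a highest density of 171 with Dex+E2 and 69.3 with E2. No mm9 gene annotation or genome was used here, so genes near the sites and the DNA sequence under them are not given.

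The 8 Dex-only sites of highest density were each close to a Dex+E2 site that they did not overlap. By z-score their ranks in the Dex list ran from 5.55 to 92.6, so not all were strong on both measures. The strongest, chr8:10646721-10646871, had a highest density of 213 and lay 207 bp from a Dex+E2 site of density 233, centre to centre. The next, chr13:52987690-52987840, had 125 with Dex, and the Dex+E2 site 191 bp away had 31.9. Over all 8 the distance was between 158 and 274 bp, and the neighbouring Dex+E2 site ranked between 76.2 and 99.3 in its list. For some of the 8, chr8:10646721-10646871 among them, this neighbour was itself shared with another Dex site. For others, such as chr13:52987690-52987840, the neighbour was a Dex+E2-only site. These 8 sites were in all 4 GR lists of 7438 Afos with Dex or Dex+E2, whose sites are wider, at least 251 bp. None of the 8 was in the ER lists with E2 or Dex+E2 of 7438, but 6 were in each ER list with Dex+E2 of 7438 Afos and 2 in each with E2. Over all Dex-only sites the shares in the 7438 Afos ER lists were 2.90% and 0.981% with Dex+E2, and 0.844% and 0.798% with E2.

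The share with such a neighbour was higher among strong than among weak Dex-only sites. Of the 19 Dex-only sites in the strongest 20% of the Dex list, 13 had a Dex+E2 site within 500 bp (68.4%, 43.4 to 87.4). These include the 8 sites just described, and without them it was 5 of 11. In the weakest 20% 43 of 1975 did (2.18%, 1.58 to 2.92). Over all Dex-only sites the count was 174 (3.97%), and the median distance to the nearest Dex+E2 site was 34344 bp. Another 4 Dex-only sites, chosen after the values were seen, were those of highest density without a Dex+E2 site within 500 bp. Their highest densities were between 47.2 and 55.3 and their density ranks between 81.8 and 85.2. They were chr9:56353181-56353331, chr14:77351983-77352133, chr11:3073257-3073407 and chr3:60378253-60378403. By z-score their ranks were 39.4, 4.30, 59.4 and 82.3 in that order, so not all were strong on both measures. The nearest Dex+E2 site was 506 and 613 bp away for the first pair and 12117 and 12848 bp away for the other pair. All 4 lacked ER in the E2 and Dex+E2 lists of 7438, as did 96.7% of all Dex-only sites. In 7438 Afos with Dex+E2, GR was listed at all 4 in replicate 1 and at 3 in replicate 2. With Dex it was listed at all 4 in replicate 1 and at 2 in replicate 2. Of the 19 strong Dex-only sites, 19 and 18 were listed with Dex+E2 in replicates 1 and 2, and 19 and 17 with Dex.

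Over all Dex+E2-only sites, 127 (7.06%) had a Dex site within 500 bp and 761 (42.3%) within 10 kb. Of the Dex-only sites, 1324 (30.2%) lay within 10 kb of a Dex+E2 site. The lists searched differ in length, with 12084 Dex and 9503 Dex+E2 sites, and the part of this in the shares was not tested. Strong Dex+E2-only sites were mostly not near a Dex site. Of the 95 in the strongest 20% of the Dex+E2 list, 12 had a Dex site within 500 bp (12.6%, 6.70 to 21.0). The strongest, chr4:149353377-149353527, is one of them, with a density of 128 with Dex+E2. A Dex-only site of density 81.0, among the 8 of highest density in that class, lay 251 bp away. In each GR list of 7438 Afos with Dex or Dex+E2, both positions overlapped a site of the same highest density, 115 and 74.1 with Dex and 85.5 and 100 with Dex+E2.

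The other 7 of the 8 strongest Dex+E2-only sites had no Dex site within 500 bp, and ER was present at all of them with E2 alone. The site chr6:147073683-147073833 had a GR density of 122 with Dex+E2, and ER densities of 423 with Dex+E2 and 291 with E2. The site chr11:50486339-50486489 had a GR density of 102 with Dex+E2 and 98.4 in the GR list with E2 alone, and ER densities of 362 and 256. The site chr6:66485006-66485156 had a GR density of 95.8 and ER densities of 438 and 299. Densities of different lists are given as deposited and were not compared. Of the 8 sites, 4 were in the 7438 GR list with E2. All 8 were in each 7438 Afos GR list with Dex+E2, and 2 and 1 were in those with Dex. Among the 95 Dex+E2-only sites in the strongest of 5 classes of strength, 97.9% were in each 7438 Afos GR list with Dex+E2. With Dex, 16.8% and 10.5% of the 95 were listed, and 91.6% held ER with E2. On these measures the 8 sites thus resembled their strength class. Over all Dex+E2-only sites, 4.45% were in the 7438 GR list with E2. That share was not computed by strength.

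ER occupancy separated the classes. The ER lists took no part in forming the classes, and a GR site was said to hold ER if it overlapped an ER site by at least 1 bp. With Dex+E2, ER was listed at 1572 of 1799 Dex+E2-only sites, or 87.4% (85.8 to 88.9). It was listed at 2897 of 7704 shared sites, or 37.6% (36.5 to 38.7), and at 131 of 4385 Dex-only sites, or 2.99% (2.50 to 3.54). The share over all GR sites was 47.0% in the Dex+E2 list and 24.9% in the Dex list. With E2 alone, ER was listed at 1187 Dex+E2-only sites, or 66.0% (63.7 to 68.2), at 1142 shared sites, or 14.8% (14.0 to 15.6), and at 60 Dex-only sites, or 1.37% (1.05 to 1.76). Over all GR sites this share was 24.5% in the Dex+E2 list and 9.85% in the Dex list. None of these intervals overlapped between classes.

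Without E2, ER was rarely listed at any class. In the ER list named untreated the shares were 0.445% at Dex+E2-only, 2.65% at shared and 0.410% at Dex-only sites. The ER list with Dex held 10149 sites, but these lay at only 0.278% of Dex+E2-only, 2.53% of shared and 0.753% of Dex-only sites. The ER lists of 7438 Afos, from other libraries, also held many of the Dex+E2-only sites. ER with E2 was listed at 55.2% and 51.7% of them in replicates 1 and 2, and ER with Dex+E2 at 68.5% and 48.3%. Over all sites of the 7438 Dex+E2 list these shares were 15.2% and 14.4% with E2 and 27.0% and 16.5% with Dex+E2. The ER lists of untreated and Dex-treated 7438 Afos cells, with at most 61 sites, overlapped none of the Dex+E2-only sites.

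The difference in ER between Dex+E2-only and shared sites held at every strength. In the weakest 20% of the Dex+E2 list, ER with Dex+E2 was listed at 75.5% of Dex+E2-only sites and 12.7% of shared sites. In the strongest 20% the shares were 98.9% and 69.2%. For ER with E2 alone they were 50.7% and 5.74% in the weakest 20% and 91.6% and 24.2% in the strongest. By rank in the Dex+E2 list, ER was thus listed more often at stronger sites of both classes, while the strongest shared sites had a lower share than the weakest Dex+E2-only sites. By rank in the Dex list, shared sites had no such gradient. ER with Dex+E2 was listed at 46.2% of them in the weakest 20%, 28.5% in the middle class and 51.5% in the strongest, and ER with E2 at 26%, 13.2% and 14.1%. Dex-only sites, ranked in the Dex list too, held ER with Dex+E2 at 3.85% in the weakest 20% and at 0 of 19 in the strongest.

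**Figure D2:**
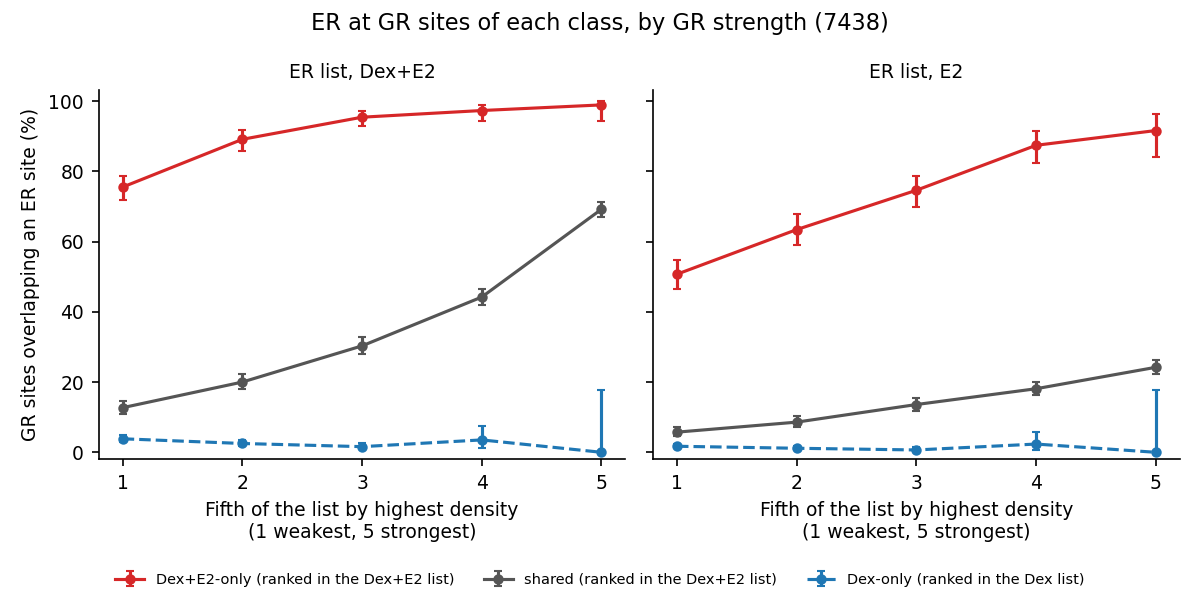
Share of GR sites (%) that overlap an ER site of 7438 with Dex+E2 (left) or E2 (right), in 5 classes of strength within the GR list from weakest (1) to strongest (5). Points are shares with exact 95% binomial intervals; Dex+E2-only sites (red, 75.5% to 98.9% on the left) lie above shared sites (grey, 12.7% to 69.2%) in every class, and Dex-only sites (blue) lie near 0.

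Few Dex+E2-only sites lacked ER altogether, and those were weak. Of the 1799, 1176 (65.4%) held ER with both E2 and Dex+E2, with a median GR rank of 38.8. A further 396 (22.0%) held ER with Dex+E2 but not with E2 alone, at a median rank of 25. The 216 without ER in either list (12.0%) had a median rank of 13.9, and 11 held ER with E2 only. Among shared sites the order differed. Those with ER under both treatments (1074, or 13.9%) had a median rank of 73.7, those with ER under Dex+E2 only (1823, or 23.7%) had 76.0, and those without ER (4739, or 61.5%) had 42.6. Of the Dex-only sites, 4240 (96.7%) held no ER.

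GR itself was seen at some Dex+E2-only sites without Dex. The 7438 GR list with E2 alone held 326 sites, which overlapped 80 of the 1799 Dex+E2-only sites (4.45%, 3.54 to 5.50). The list named untreated held 143 sites and overlapped 3 of them (0.167%, 0.0344 to 0.487). At shared sites the share was 2.04% with E2 and 1.69% without hormone, and at Dex-only sites it was 0.228% and 0.114%. Over all sites of the 7438 Dex+E2 list it was 2.49% with E2 and 1.40% without hormone. Each of these treatments had 1 GR list, and the E2 list was the longer one. The difference between E2 and untreated shares was not tested in any class.

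Shared sites kept much of their order between treatments. Across the 7699 pairs, Spearman's rho was 0.828 for highest density and 0.808 for z-score, and Pearson's r of the density ranks was 0.782. The points come from the same pair of libraries and are not independent, so these values describe the lists and carry no test. Of the 100 strongest shared Dex sites, 87 were among the 100 strongest shared sites with Dex+E2, and none of the 100 ranked under 98.1 in the Dex+E2 list.

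The rank of a shared site with Dex+E2 minus its rank with Dex differed with ER. Over all pairs the median difference was −8.23 percentile points (−8.69 to −7.90; quartiles −20.9 and −0.815), and 1536 sites (20%) ranked higher with Dex+E2. The lists differ in length and in how many weak sites were unshared, and the part of this in the overall median was not tested. Sites with ER under both E2 and Dex+E2 (1060 pairs) went from a median rank of 64.6 with Dex to 73.6 with Dex+E2, with a median difference of 2.36 (1.51 to 3.09). Of these, 62.2% ranked higher with Dex+E2. Sites with ER under Dex+E2 only (1821 pairs) went from 79.8 to 76.1, with a median difference of −1.64, and 28.1% ranked higher. Sites without ER (4748 pairs) went from 64.5 to 42.6, with a median difference of −15.3 (−15.8 to −14.8), and 7.25% ranked higher. Sites with ER under both treatments and sites without ER thus had nearly equal medians with Dex and stood apart with Dex+E2, while sites with ER under Dex+E2 only ranked above both with Dex.

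**Figure D3:**
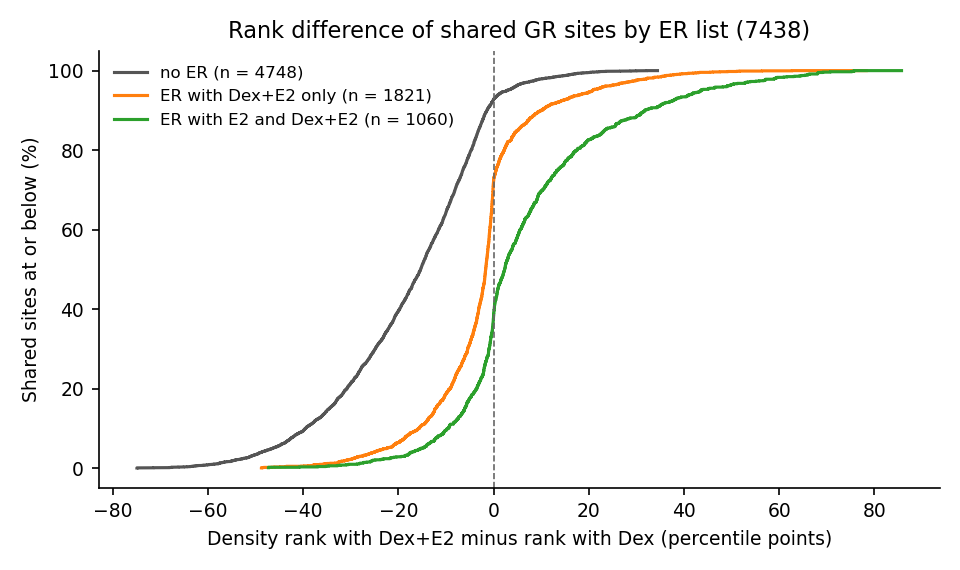
Cumulative share of shared GR sites (%) against the density rank with Dex+E2 minus the rank with Dex, in percentile points, by ER listed in 7438. The curve of sites with ER under both E2 and Dex+E2 (green, median 2.36) lies to the right of sites with ER under Dex+E2 only (orange, −1.64) and of sites without ER (grey, −15.3).

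Split by ER with E2 alone, a list that includes no Dex-treated library, the median difference was 1.96 at 1130 sites with ER and −10.6 at 6569 sites without, which is 12.5 percentile points apart. The gap was present in each of 5 classes of Dex rank. In the weakest class the medians were 25.7 with ER and 2.60 without, and in the middle class 5.89 and −21.1. In the strongest class they were 0.0281 and −4.40, where the scale ends at 100 and leaves little room.

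**Figure D4:**
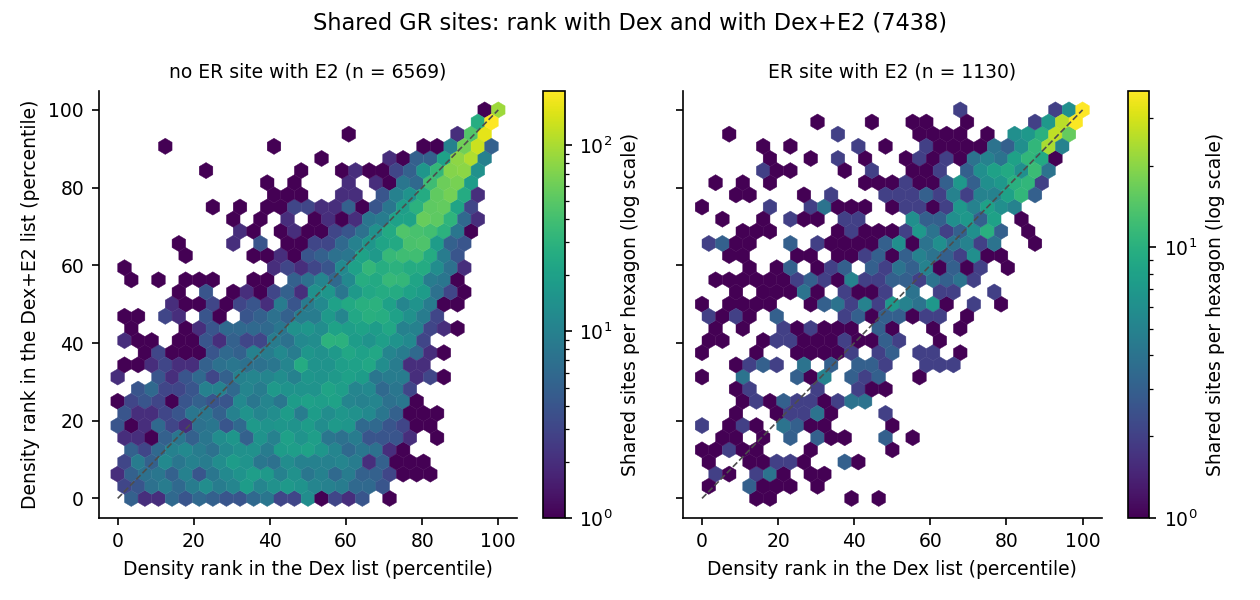
Density rank of each shared GR site in the Dex+E2 list against its rank in the Dex list (percentiles), for 6569 sites without (left) and 1130 sites with (right) an ER site with E2. Colour gives the number of sites per hexagon on a log scale, and the dashed line marks equal ranks; most sites without ER lie below the line (median −10.6), and those with ER lie around and above it (median 1.96).

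Large differences in whole-list rank were less frequent upward than downward. A rank at least 25 percentile points higher with Dex+E2 was found at 228 shared sites (2.96%), and one at least 25 points lower at 1506 (19.6%). Shared sites as a whole had a median rank of 67.4 in the Dex list and 55.4 in the Dex+E2 list. The part of this offset in the counts was not tested, so they do not show that binding fell at more sites than it rose. Of the 228, 152 (66.7%) held ER with E2 and 219 (96.1%) held ER with Dex+E2. Of the 1506, 25 (1.66%) and 92 (6.11%) did, against 14.7% and 37.4% of all shared pairs. Sites without ER made up 8 of the 228 and 1409 of the 1506.

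The largest difference upward was at chr7:119476079-119476229, with a highest density of 11.3 with Dex (rank 7.75) and 75.4 with Dex+E2 (rank 93.4). ER had a density of 222 there with Dex+E2 and 129 with E2. The site chr19:42291099-42291249 had 12.1 with Dex and 60.6 with Dex+E2 (ranks 12.6 and 90.9), with ER at 78.4 with Dex+E2 and none listed with E2. All 4 sites named by this rule held ER with Dex+E2 and 3 held ER with E2. None of the 4 was in a 7438 Afos GR list with Dex, and all were in both with Dex+E2. Of all 228 such sites, 28.5% and 8.33% were listed with Dex, and 80.3% and 79.8% with Dex+E2. Over all shared pairs it was 70.1% and 52.5% with Dex, and 70.3% and 76.2% with Dex+E2. The densities of the 4 with Dex, 10.0 to 12.5, lay near the lowest in the list. The largest difference downward was at chr10:66561787-66561937, with a density of 46.1 with Dex (rank 81.1) and 10.7 with Dex+E2 (rank 6.23). The site chr6:94105819-94105969 had 35.4 and 10.0 (ranks 73.2 and 0.784). None of the 4 sites named at this end held ER, and all 4 were in every GR list of 7438 Afos with Dex or Dex+E2. Of all 1506 such sites, 69.3% and 45.8% were listed with Dex, and 64.5% and 70.2% with Dex+E2. The densities of the 4 with Dex+E2, 10.0 to 11.1, lay near the lowest in the list.

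The GR lists of 7438 Afos gave a comparison in separate libraries. They were made differently, with median site widths between 570 and 602 bp with these treatments, and held 8873 and 5136 sites with Dex and 14160 and 10309 with Dex+E2. Dex+E2-only sites of 7438 were found in 8.95% and 4.0% (replicates 1 and 2) with Dex and in 72.5% and 57.9% with Dex+E2. The replicates did not overlap between treatments. The means were 6.48% ± 3.50 (SD, n = 2) and 65.2% ± 10.3 (SD, n = 2), a difference of 58.7 percentage points (exact permutation test over lists, two-sided, p = 0.333). That is the smallest p that 2 lists against 2 can give, so this design cannot pass 0.05. Over all sites of the 7438 Dex+E2 list the shares were 58.5% and 43.3% with Dex and 70.7% and 72.7% with Dex+E2. Dex+E2-only sites thus were listed about as often as the whole list in replicate 1 with Dex+E2, less often in replicate 2, and far less often in both lists with Dex.

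Dex-only sites were found in 41.8% and 18.9% of cases in the 7438 Afos lists with Dex and in 43.5% and 37.7% with Dex+E2. The means were 30.4% ± 16.2 (SD, n = 2) and 40.6% ± 4.06 (SD, n = 2), a difference of 10.2 percentage points (exact permutation test, two-sided, p = 0.667), smaller than the spread between the Dex replicates. The difference was 18.8 without replicate 1 and 1.62 without replicate 2. Over all sites of the 7438 Dex list the shares were 59.8% and 40.3% with Dex and 60.5% and 62.2% with Dex+E2. The replicates overlapped between treatments, and the Dex-only sites followed the whole Dex list in being listed more often in the Dex+E2 lists on average. List length moves with these shares, since the Dex+E2 lists of 7438 Afos were the longer ones, while in 7438 the Dex list was longer; the part of list length in the shares was not tested.

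**Figure D5:**
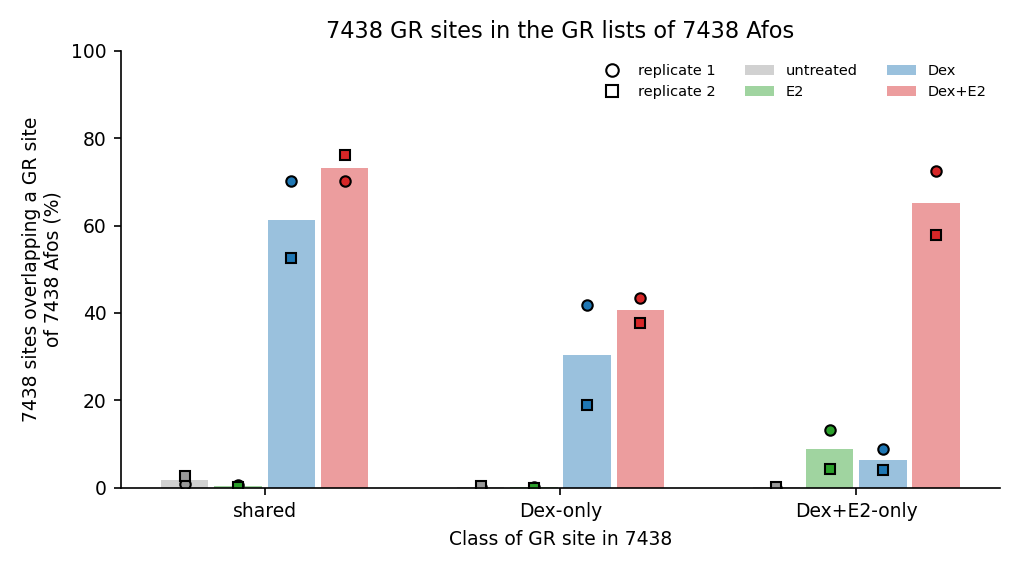
Share of 7438 GR sites (%) of each class that overlap a GR site of 7438 Afos, by treatment of the 7438 Afos cells. Points are the 2 replicate lists and bars their mean; Dex+E2-only sites stand at 8.95% and 4.0% with Dex and 72.5% and 57.9% with Dex+E2, and Dex-only sites at 41.8% and 18.9% and at 43.5% and 37.7%.

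Where Dex+E2-only sites were listed in 7438 Afos with Dex+E2, they were strong in replicate 1, with a median rank of 73.6 against 74.0 for shared sites. In replicate 2 the medians were 55.8 and 69.0. Dex-only sites had median ranks of 51.0 and 37.5 in the same lists, and of 41.1 and 31.5 in the lists with Dex. Among the 7438 Dex+E2-only sites with ER under both E2 and Dex+E2, 4.59% and 1.96% were listed with Dex and 75.9% and 58.9% with Dex+E2. Among the 216 without ER, 24.5% and 13.9% were listed with Dex and 38.0% and 39.4% with Dex+E2. The contrast between treatments was smaller at sites without ER, and that difference was not tested.

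The numbering of the lists bears on the unshared sites. Sites carry running numbers, and the Dex+E2 list ends at 12859 with 3356 numbers missing (26.1%), while the Dex list ends at 13933 with 1849 missing (13.3%). Why they are missing is not stated. Of the Dex-only sites, 1628 (37.1%) lay between Dex+E2 sites with consecutive numbers, and 2746 (62.6%) lay in intervals with missing numbers, which cover 63.7% of the length spanned, so this share is near its background. If each missing number stood for at most 1 site, at most 2139 Dex-only sites (48.8%) could match one, and at least 2246 could not. Of the Dex+E2-only sites, 1405 (78.1%) lay between Dex sites with consecutive numbers, and 380 (21.1%) in intervals with missing numbers, which cover 43.5% of the length. At most 302 (16.8%) could match a missing number. The Dex+E2-only class was thus affected less than the Dex-only class by this bound.

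Both unshared classes were found on every chromosome of the lists. The share of Dex sites that were shared ranged from 51.2% on chromosome X (43.3 to 59.2, 162 sites) to 67.9% on chromosome 15. The share of Dex+E2 sites that were Dex+E2-only ranged from 9.78% on chromosome X (9 of 92) to 24.9% on chromosome 11 (173 of 696, 21.7 to 28.2).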

How the data were processed

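GR and ER ChIP-seq site lists of 24 of 39 samples were read: 8 of 7438 and 16 of 7438 Afos. The other 15 samples were not analysed here. Per the submitters' processing notes, CASAVA 1.8 and the mouse build mm9 were used; which aligner, peak caller, threshold and control were applied is not given in the sources used here. For every site a deposited list gives, per the file headers, the highest and average tag density, a signal value, and the z-score, a score assigned by the authors. Whether coordinates start from 0 or 1 is not stated in the headers, and they are printed as deposited. Treatments of 7438 lists were taken from the list names, which contradict the labels for the lists named untreated and Dex+E2.

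Overlap meant at least 1 bp in common. Ranks were percentiles within a list, and shares carry exact binomial intervals. With 1 list a treatment in 7438 no test was made there; 7438 Afos lists were compared by exact permutation over lists, unadjusted, for 2 comparisons. Where replicates are not stated to be separate cultures, such p-values measure only the spread between lists. Named sites are the 8 of highest density rank in each class (shared sites by the mean of both ranks) and the 4 largest rank differences in each direction; the 4 isolated Dex-only sites were added after their values were seen. The members, lists and tests were chosen with earlier results of these data known. Alternatives were the required overlap, a window of 500 bp between centres, sites at or above the median density, equal list lengths, removal of sites in the untreated list, other rank measures, treatments from the labels, each replicate left out and a replicate block. Added after seeing the data were averaging over 5 classes of strength, ranks among shared sites alone, and missing numbers counted as matches. The overlap functions were tested on simulated lists. Computation used Python 3.11.15, NumPy 2.4.6, SciPy 1.17.1, pandas 2.3.3 and matplotlib 3.10.9.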

Additional observations from a re-analysis of the deposited data

Results flagged for a closer look

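GR lists of cells given E2 without Dex belong to none of the tests above, yet they held Dex+E2-only GR sites of 7438 more often than the untreated lists of the same cells did. In 7438 the share was 4.45% (3.54 to 5.50) with E2, against 0.167% (0.0344 to 0.487) in the list named untreated. In 7438 Afos replicate 1 it was 13.2% (11.7 to 14.9) with E2, against 0.0556% (0.00141 to 0.309) untreated. In 7438 Afos replicate 2 it was 4.39% (3.49 to 5.44) with E2, against 0.167% (0.0344 to 0.487) untreated. Over all sites of the 7438 Dex+E2 list the share was 2.49% with E2 and 1.40% untreated in the 7438 lists. In 7438 Afos it was 3.10% with E2 and 0.684% untreated in replicate 1. In replicate 2 it was 1.07% with E2 and 2.16% untreated, the opposite order. The E2 lists were short, with 326, 490 and 146 sites, and the untreated lists held 143, 95 and 315. In 7438 Afos replicate 2 the E2 list was the shorter one. It held 79 of the Dex+E2-only sites, against 3 in the untreated list. The differences and the part of list length in them were not tested.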

How the results depend on the processing

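Of 71 alternatives over 9 results, 40 stayed within the interval or spread of the reported value, 28 moved beyond it and 3 turned the direction. All 3 reversals came from reading treatments from the labels, which leaves a list of 143 sites as Dex+E2. The rank gap in the Dex+E2 list was then −0.524 (−42.7 to 49.3). The ER gaps were −29.2 (−48.8 to 16.3) with Dex+E2 and −36.0 (−63.9 to 10.6) with E2. All 3 intervals include 0, and only 9 sites were then Dex+E2-only. Under that reading 1.12% of Dex sites were shared and 6.29% of Dex+E2 sites were absent from Dex. The rank gap in the Dex list was 25.9, and the ER gap in rank difference was 1.53. In 7438 Afos the difference was 0 percentage points for Dex+E2-only sites and 11.4 for Dex-only sites.

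The share of Dex sites shared, 63.7%, became 65.2% with a window of 500 bp, 92.3% at or above the median density, 76.0% with equal list lengths and 81.4% with missing numbers counted as matches. The share of Dex+E2 sites absent from Dex, 18.9%, became 17.6%, 10.3%, 23.9% and 15.8% in the same order. The rank gap between shared and Dex-only sites, 44.9, became 18.8 at or above the median density, 41.7 with equal lengths, 42.4 by z-score and 47.6 by average density. The gap between shared and Dex+E2-only sites, 24.2, became 10.5 at or above the median density and 30.3 with equal lengths. The ER gaps between Dex+E2-only and shared sites, 49.8 percentage points with Dex+E2 and 51.2 with E2, became 44.3 and 64.3 at or above the median density, 42.1 and 43.7 with equal lengths, and 56.0 and 59.5 averaged over 5 classes of strength. The gap in rank difference by ER with E2, 12.5, became 10.7 at or above the median density, 11 by z-score and 13.8 with ranks among shared sites alone. The causes of these moves were not tested.

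Leaving out each replicate of 7438 Afos gave 53.9 to 63.5 percentage points for Dex+E2-only sites and 1.62 to 18.8 for Dex-only sites, so the size for Dex-only sites rests on 1 replicate: it was 18.8 without replicate 1 and 1.62 without replicate 2. With the replicate block, same-numbered lists differed by 58.7 (exact p = 0.5) and 10.2 (exact p = 0.5); 2 pairs cannot show whether the numbers pair the samples. Unknown depth limits all shares, since a site below the calling limit cannot be told apart from an unbound one.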
